A study of Homo sapiens with 12 samples.

Results

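The 9 genes described here build, load or switch on the MHC class I complex: the heavy chains HLA-B, HLA-C, HLA-E and HLA-F, the shared light chain B2M, the peptide pump TAP1 and TAP2, its docking protein TAPBP, and the transactivator NLRC5. They were chosen by gene symbol, on primary chromosomes only, and with earlier results of these data known. They took up 10 of the 60107 rows on primary chromosomes in the count table, because TAP2 stood there under 2 Ensembl identifiers. All 10 passed the filter on low counts. In hg38, HLA-F lies at chr6:29722775-29738528 and HLA-E at chr6:30489406-30494205 on the plus strand, and HLA-C at chr6:31268749-31357158, HLA-B at chr6:31353872-31357188, TAP2 at chr6:32813767-32838822 (ENSG00000250264) and chr6:32821833-32838780 (ENSG00000204267), TAP1 at chr6:32845209-32853978 and TAPBP at chr6:33299694-33314387 on the minus strand. B2M at chr15:44711477-44718877 and NLRC5 at chr16:56989485-57083531, both on the plus strand, lie outside the MHC. A further 42 rows for these genes lay on alternative haplotype contigs, and none of those rows held a read.

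JEKO-1 cells, an established line of human malignant B cells from mantle cell lymphoma, were treated for 48 h and their RNA sequenced, giving 3 libraries for each of 4 treatments. Cells received KPT-330 together with choline salicylate (KPT-330+CS), KPT-330 alone (selinexor, which blocks the nuclear export receptor XPO1), choline salicylate alone (CS, a salicylate salt), or DMSO, the solvent control. Per the labels, KPT-330 was dissolved in DMSO and CS was diluted in PBS; no source used here says whether the CS cultures also received DMSO, or which concentrations these libraries stand for. All groups are this single line. It is not stated that libraries of 1 treatment were grown separately; p-values then measure only how these libraries vary, which may be technical.

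A class I molecule is a heavy chain bound to B2M and a short peptide, shown at the cell surface to CD8 T cells, while HLA-E is read mainly by inhibitory receptors of natural killer cells. Peptides cut by the proteasome are pumped into the endoplasmic reticulum by the TAP1-TAP2 transporter and fitted into the groove by a complex of tapasin (TAPBP), calreticulin (CALR) and the thiol oxidoreductase ERp57 (PDIA3). NLRC5 binds no DNA itself and acts with the RFX complex, CREB or ATF factors and NF-Y at a shared promoter module, which is why these genes are often followed together.

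The promoters of 4 members are shown because 3 of their genes rose with KPT-330 (HLA-B, HLA-C, HLA-F) and the fourth, B2M, did not, so that a reader can compare the elements each window holds. Each runs 5′ to 3′ on the gene's own strand from 250 bases before to 50 bases after the RefSeq start (GRCh38.p14), with matches to any of 4 motifs in capitals: an interferon response element (GAAA, any 2 bases, GAAA), the CCAAT box of NF-Y (CCAAT), the core of the X2 or CRE site (TGACG) and a kappaB site (GGGA, any 4 bases, CC), each on either strand, with overlapping matches joined. HLA-B is at chr6:31357130-31357429 and HLA-C at chr6:31272043-31272342, both on the minus strand, HLA-F at chr6:29723184-29723483 and B2M at chr15:44711267-44711566, both on the plus strand.
HLA-B: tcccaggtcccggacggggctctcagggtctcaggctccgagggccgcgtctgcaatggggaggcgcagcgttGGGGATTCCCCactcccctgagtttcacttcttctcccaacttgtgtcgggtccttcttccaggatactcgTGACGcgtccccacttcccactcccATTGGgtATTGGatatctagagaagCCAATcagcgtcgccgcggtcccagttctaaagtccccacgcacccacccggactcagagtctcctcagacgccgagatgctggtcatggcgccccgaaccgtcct
HLA-C: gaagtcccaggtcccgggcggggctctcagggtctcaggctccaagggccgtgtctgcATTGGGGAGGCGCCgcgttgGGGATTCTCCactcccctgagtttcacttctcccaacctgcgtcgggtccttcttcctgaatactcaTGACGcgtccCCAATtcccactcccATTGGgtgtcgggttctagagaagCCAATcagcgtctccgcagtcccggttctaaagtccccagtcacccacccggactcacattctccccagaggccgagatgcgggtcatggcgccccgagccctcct
HLA-F: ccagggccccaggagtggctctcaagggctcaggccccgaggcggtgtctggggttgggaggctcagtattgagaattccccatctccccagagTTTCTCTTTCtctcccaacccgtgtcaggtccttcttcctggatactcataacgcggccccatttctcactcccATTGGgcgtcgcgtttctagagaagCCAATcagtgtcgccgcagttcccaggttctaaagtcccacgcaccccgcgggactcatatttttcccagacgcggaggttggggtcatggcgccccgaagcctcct
B2M: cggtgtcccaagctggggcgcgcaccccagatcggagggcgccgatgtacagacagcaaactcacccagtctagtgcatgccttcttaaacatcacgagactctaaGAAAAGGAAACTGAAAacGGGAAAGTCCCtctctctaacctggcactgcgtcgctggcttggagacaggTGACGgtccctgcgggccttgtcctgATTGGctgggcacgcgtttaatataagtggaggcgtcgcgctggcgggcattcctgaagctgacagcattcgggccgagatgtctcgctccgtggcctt

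The HLA-B and HLA-C windows both had TGACG at positions -106 and -105 relative to the start site and a CCAAT box at -56, and differed in the places of their other CCAAT and kappaB matches. HLA-F had CCAAT boxes at -82 and -57, a response element match at -156 and no TGACG match in its window. B2M had 2 overlapping response element matches, at -144 and -138, and overlapping kappaB matches at -126 and -125, with TGACG at -75 and a CCAAT box at -49. Over all 35116 promoters in the same table, 3.57% held the response element, 34.6% the CCAAT box, 24.6% TGACG and 25.6% the kappaB letters, so all but the first are common by letters alone. RefSeq windows were matched for 7 of the 9 members (8 entries, 2 of them for TAP1); response element matches also lay in those of TAP1, TAP2 and TAPBP. A match is a run of letters and says nothing of binding in these cells. A site that departs from the letters is not marked, so the lack of a match does not show that an element is absent.

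Depth per library ranged from 35325563 to 59490178 counts, and 19460 genes were tested. The 8 B cell markers summed to 2608 to 2657 CPM (counts scaled to an equal total per library) in KPT-330+CS, 2509 to 2545 in KPT-330, 2140.2 to 2269 in CS and 1846 to 1893 in DMSO. Of the 7 tested, 6 were called higher in KPT-330 than in DMSO, beside 24.7% of all tested genes. The 3 mantle cell lymphoma genes (CCND1, SOX11, CD5) summed to at least 396 CPM in every library, so the labelled cell type was present by this sum. Most of it came from 1 gene. The highest single value was 549 CPM in KPT-330+CS, 558 in KPT-330, 566 in CS and 585 in DMSO, beside largest sums of 648, 643, 661 and 670. The summed level of 8 T cell markers was 5.04 to 6.32 CPM in KPT-330+CS, 20.4 to 22.2 in KPT-330, 8.23 to 9.69 in CS and 11.6 to 12.7 in DMSO, most of it from TRAC, with CD3D at most at 0.152 and CD2 at most at 0.079 CPM. Of the 6 T cell markers tested, 6 were called higher in KPT-330 than in DMSO, where 24.7% of all tested genes were higher. In KPT-330+CS against DMSO, 4 were higher and 1 lower, beside 29.3% and 26.2% of all tested genes. The summed level of 5 natural killer cell markers was 24.8 to 26.9 CPM in KPT-330+CS, 44.8 to 46.3 in KPT-330, 16.4 to 17.2 in CS and 10.6 to 11.2 in DMSO, nearly all of it from KLRK1, with NCR1 at most at 0.122 and KLRD1 at most at 0.057 CPM. Markers of myeloid cells summed to at most 4.15 CPM and those of epithelial cells to at most 3.34 CPM. The part of these markers in the results was not tested, and in bulk RNA a change in the number of cells of a type and in RNA per cell cannot be told apart. Counts also leaned on the GC content of genes to a different degree in each library. These slopes are of log2 CPM relative to each gene's mean over the 12 libraries, so a slope of 0 means like the average library. Per 10 GC points they were 0.128, 0.026 and -0.150 in KPT-330+CS, 0.203, 0.195 and 0.228 in KPT-330, -0.229, -0.102 and 0.059 in CS, and 0.087, -0.130 and -0.314 in DMSO. The 3 KPT-330 libraries thus stood above every other library, and all members but B2M (39.1% GC in its canonical transcript) and TAP2 ENSG00000204267 (48.9%) were at 55.1% GC or more. Results below are therefore given as counted and, where it matters, after a lowess GC correction of every library. That correction also removes any treatment effect that follows GC content. Since the KPT-330 slopes stood apart, a GC bias and such an effect cannot be told apart, and neither set of values is the better estimate.

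Class I heavy chain transcripts were higher in KPT-330 than in DMSO, and B2M was not called. All 4 heavy chains rose, as did NLRC5, with changes from 0.52 for NLRC5 to 1.02 for HLA-F on the log2 scale. Of the 10 rows, 7 were called higher and 0 lower by edgeR's quasi-likelihood test (Benjamini-Hochberg adjustment, threshold 0.05), where 24.7% of all tested genes were higher and 23.8% lower. The median over the 10 rows was 0.46, beside 0.04 over all tested genes. In 7 rows every KPT-330 library lay above every DMSO library, which held for 30.3% of all tested genes.

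**Figure D1:**
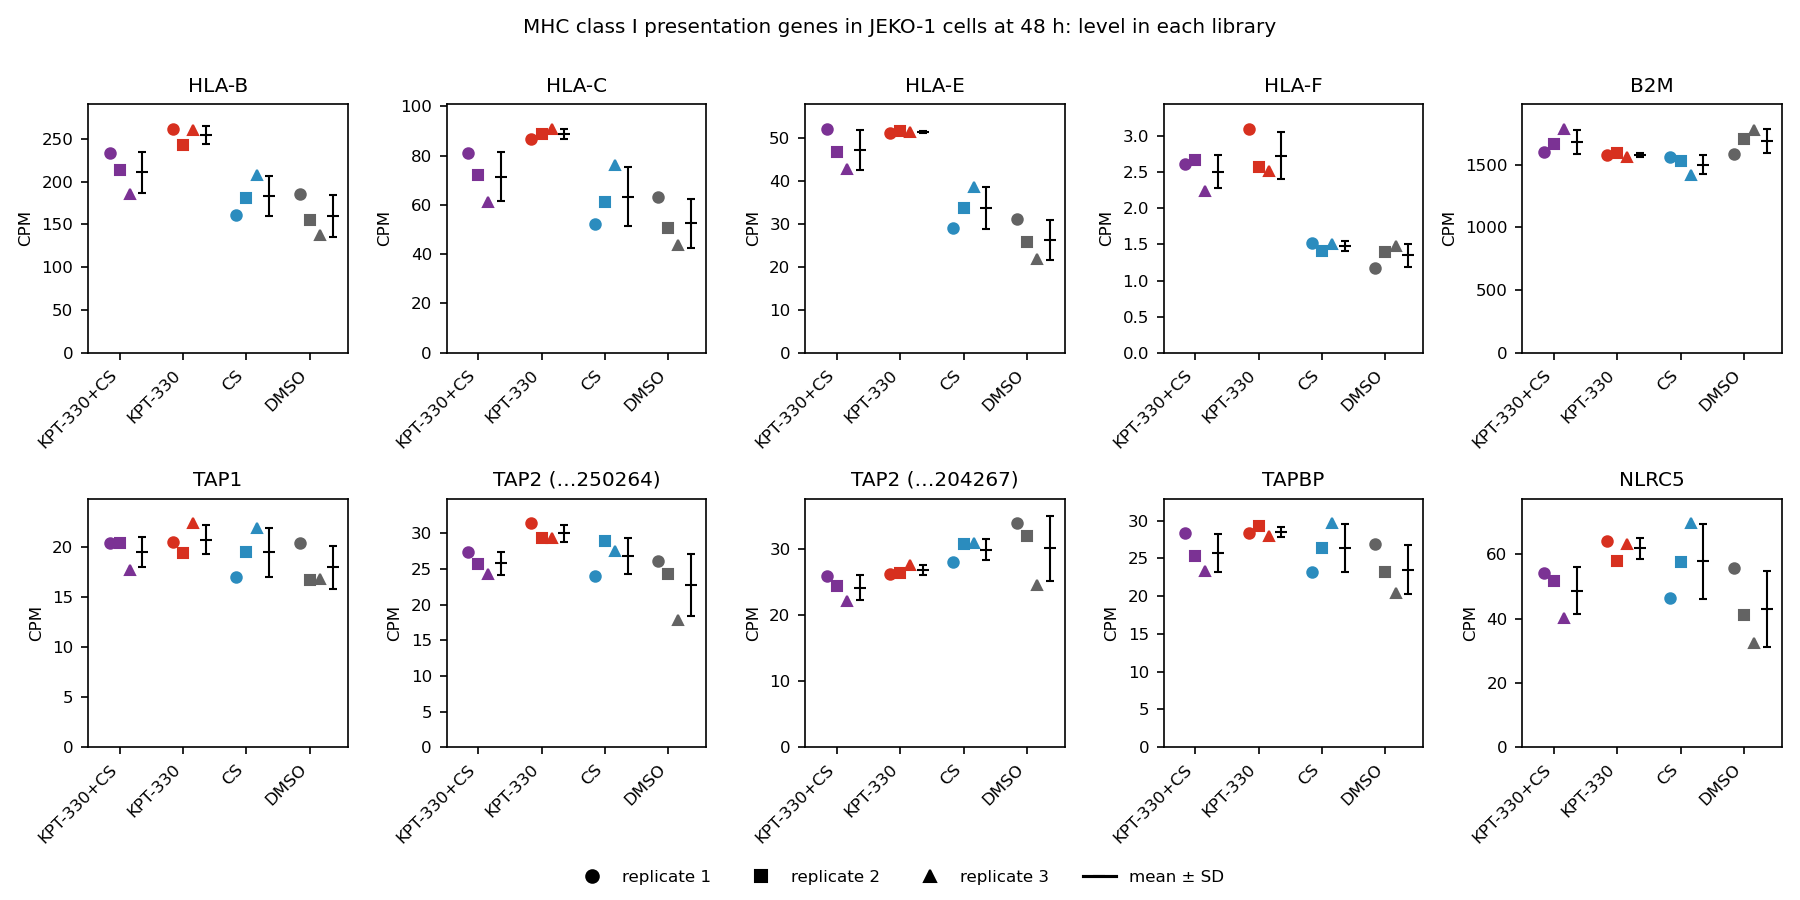
Level (CPM, linear axis from 0) of each member row in each of the 12 libraries, by group, with the mean ± SD of 3 libraries beside the points. HLA-B, HLA-C, HLA-E and HLA-F in the KPT-330 libraries lie above all DMSO libraries, while B2M stays between 1419.5 and 1787 CPM in all groups.

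HLA-E, the chain that carries leader peptides of other class I molecules and engages CD94-NKG2A, had 51.3, 51.7 and 51.5 CPM in KPT-330, against 31.1, 25.7 and 21.8 CPM in DMSO. Its KPT-330 libraries were nearly equal and clear of the DMSO ones (log2 fold change 0.97 ± 0.12 SE, adjusted p = 3.27e-05). HLA-F, a nonclassical chain of low abundance, had 3.10, 2.57 and 2.52 CPM in KPT-330, against 1.17, 1.39 and 1.48 CPM in DMSO. That was a 2.03-fold difference (log2 1.02 ± 0.15, adjusted p = 8.14e-05) on 57 to 163 reads a library. An antisense gene, HLA-F-AS1, shares 535 exon bases with HLA-F, and its reads cannot be told apart from those of HLA-F without strand information.

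The classical chains HLA-B and HLA-C, which present cytosolic peptides to CD8 T cells, moved less than HLA-E. HLA-B had 262, 242 and 260.3 CPM in KPT-330, against 186, 155 and 138 CPM in DMSO (log2 0.67 ± 0.11, adjusted p = 0.000309). HLA-C had 86.7, 88.7 and 90.9 CPM in KPT-330, against 63.4, 50.5 and 43.7 CPM in DMSO (log2 0.76 ± 0.15, adjusted p = 0.000846). No KPT-330 library of either chain overlapped a DMSO library. The DMSO libraries themselves were spread widely, with replicate 1 the highest and replicate 3 the lowest for HLA-B, HLA-C and HLA-E, the same order as their GC slopes. HLA-B and HLA-C are near-identical paralogs, and the annotated span of HLA-C covers that of HLA-B, so the split of reads between them is uncertain; their reads stood at 2.73 to 3.02 HLA-B reads per HLA-C read in KPT-330 and at 2.93 to 3.16 in DMSO.

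With the GC content of canonical transcripts, the log2 fold change of KPT-330 over DMSO was 0.80 ± 0.05 for HLA-E (adjusted p = 2.22e-10), 0.69 ± 0.18 for HLA-F (0.00303), 0.31 ± 0.03 for HLA-C (1.87e-07) and 0.29 ± 0.03 for HLA-B (5.72e-07). With the GC content of the longest transcript instead, HLA-B stood at 0.59 and HLA-C at 0.16, because that transcript has 52.0% GC for HLA-B and 62.7% for HLA-C. After the correction with canonical transcripts HLA-E had 46.8 to 48.0 CPM in KPT-330, against 25.3 to 29.3 CPM in DMSO, and HLA-B had 205 to 219 CPM in KPT-330, against 168 to 184 CPM in DMSO. All 4 chains were thus called higher as counted and under both corrections, and the sizes of HLA-B and HLA-C depended on the correction.

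The coefficient of variation of HLA-B, HLA-C and HLA-E in KPT-330+CS, CS and DMSO was 9.85% to 19.1% as counted and 1.94% to 7.46% after it. For HLA-C in DMSO it was 19.1% as counted and 3.85% after the correction. It was wider after the correction for HLA-F in CS (14.3%, against 4.28% as counted) and in DMSO (27.5%, against 11.8%), and for HLA-E in KPT-330 (1.44%, against 0.460%).

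**Figure D2:**
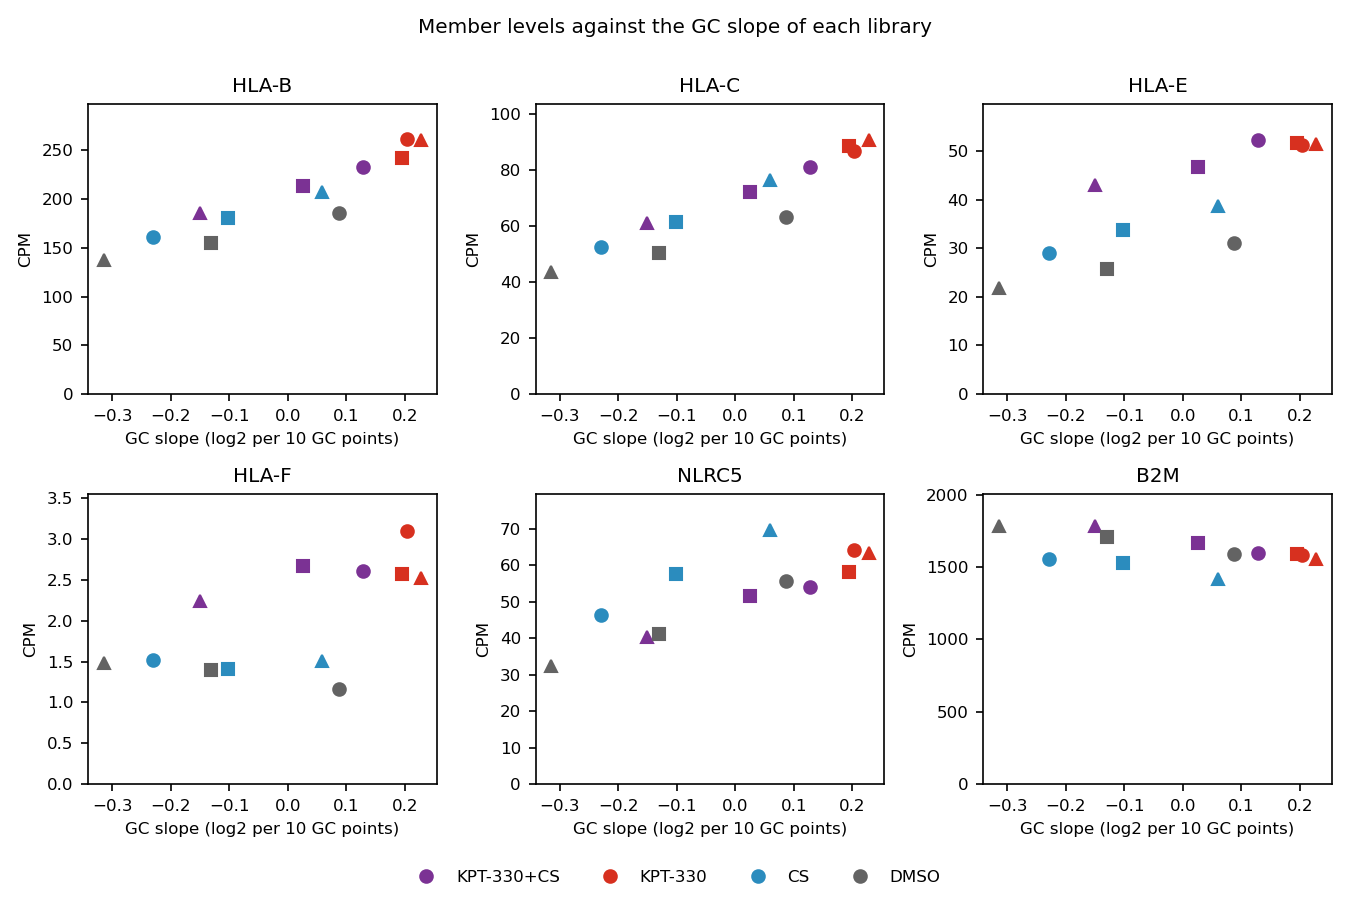
Level (CPM, axis from 0) of 6 members in each library against that library's GC slope (log2 CPM relative to each gene's mean over all libraries, per 10 GC points); colour gives the group, and circles, squares and triangles are replicates 1, 2 and 3. HLA-B, HLA-C, HLA-E and NLRC5 rise and B2M falls with the slope within KPT-330+CS, CS and DMSO, while HLA-F lies at 2.24 to 3.10 CPM in the libraries with KPT-330 and at 1.17 to 1.52 CPM in those without it.

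B2M, the light chain common to all these molecules, was by far the most abundant member. It had 1582, 1594 and 1559.7 CPM in KPT-330, against 1589.7, 1706 and 1781 CPM in DMSO. The groups overlapped, and the log2 fold change was -0.10 ± 0.06 (adjusted p = 0.190) as counted and 0.07 ± 0.02 (adjusted p = 0.0219) after the GC correction with canonical transcripts, so its small change turned sign with the correction. Reads of the 4 heavy chains together per read of B2M, a ratio that needs no scaling between libraries, were 0.255, 0.242 and 0.260 in KPT-330, against 0.177, 0.136 and 0.115 in DMSO. The ratio was higher in all 3 KPT-330 libraries than in any DMSO library, though B2M and the heavy chains also differ in GC content. HLA-B reads per HLA-E read were 5.10, 4.69 and 5.05 in KPT-330, against 5.98, 6.04 and 6.34 in DMSO. HLA-E thus gained on HLA-B within every KPT-330 library; 3 libraries against 3 cannot reach an exact permutation p under 0.10, and no test was run on the ratios.

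Genes of the transporter and its docking protein changed little. TAP1, which with TAP2 pumps peptides into the endoplasmic reticulum, had 20.5, 19.4 and 22.4 CPM in KPT-330, against 20.4, 16.8 and 16.8 CPM in DMSO (log2 0.21 ± 0.11, adjusted p = 0.133). TAPBP, which holds empty class I chains at the transporter, had 28.3, 29.3 and 28.0 CPM in KPT-330, against 26.9, 23.1 and 20.4 CPM in DMSO. It was called at the edge of the threshold (log2 0.28 ± 0.11, adjusted p = 0.0496), passed in 10 of 26 alternative fits and stood at 0.00 after the GC correction with canonical transcripts and at -0.02 with longest transcripts. TAP1 shares 672 exon bases with the antisense gene PSMB8-AS1.

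The 2 TAP2 identifiers did not move together. The row ENSG00000250264 had 31.4, 29.3 and 29.4 CPM in KPT-330, against 26.2, 24.2 and 17.8 CPM in DMSO (log2 0.40 ± 0.12, adjusted p = 0.0135). The row ENSG00000204267 had 26.3, 26.5 and 27.7 CPM in KPT-330, against 34.0, 32.0 and 24.6 CPM in DMSO (log2 -0.17 ± 0.10, adjusted p = 0.191). Reads of the first per read of the second were 1.19, 1.11 and 1.06 in KPT-330, against 0.771, 0.758 and 0.724 in DMSO, with CS between them at 0.854, 0.935 and 0.887. The models share 2023 exon bases, and the first also shares 599 exon bases with the class II gene HLA-DOB, which was 1.10 higher on the log2 scale in KPT-330; the part of HLA-DOB reads in this row was not tested. With both identifiers summed, TAP2 changed by 0.10 ± 0.11 (adjusted p = 0.441), and the first row alone stood at 0.04 after the GC correction.

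NLRC5, the class I transactivator, had 64.2, 58.0 and 63.3 CPM in KPT-330, against 55.7, 41.0 and 32.4 CPM in DMSO. It was called higher (log2 0.52 ± 0.18, adjusted p = 0.0282), with the DMSO libraries spread more widely than for any other member. Without DMSO replicate 3 it was 0.36 (adjusted p = 0.155), and the call was also lost without DMSO replicate 2, KPT-330 replicate 1, KPT-330 replicate 3 or CS replicate 2. After the GC correction with canonical transcripts it was 0.21 ± 0.07 (adjusted p = 0.0265).

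**Figure D3:**
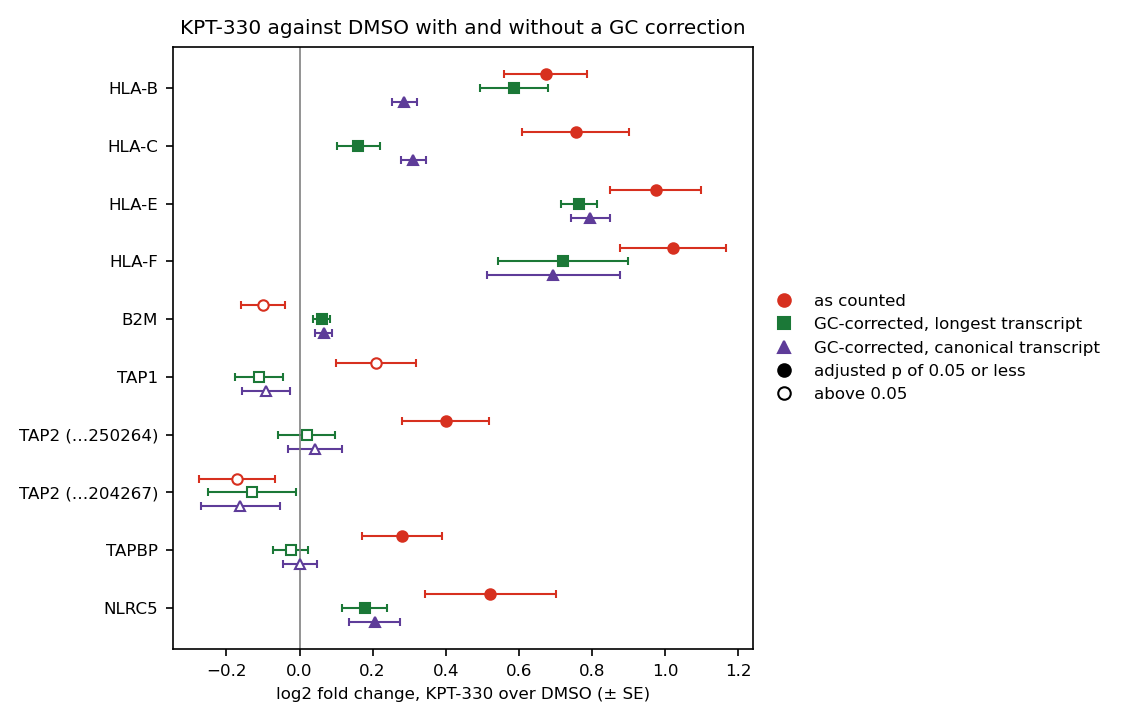
Log2 fold change of KPT-330 over DMSO (± SE) for each member row as counted and under the 2 GC corrections; filled symbols have an adjusted p of 0.05 or less. HLA-E and HLA-F keep the largest values under all 3, at 0.69 or more, HLA-B and HLA-C stay called and above 0, and TAPBP and TAP2 (ENSG00000250264) are open and close to 0 after either correction.

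CS alone gave smaller differences, and no member was called against DMSO by edgeR. 3 of the 10 rows had an unadjusted p of 0.05 or less, DESeq2 called 1 (HLA-E) and limma voom 0, where edgeR called 8.88% of all tested genes in either direction. HLA-E had 29.0, 33.8 and 38.7 CPM in CS, against 31.1, 25.7 and 21.8 CPM in DMSO (log2 0.37 ± 0.12, adjusted p = 0.0853). NLRC5 had 46.4, 57.6 and 69.7 CPM in CS, against 55.7, 41.0 and 32.4 CPM in DMSO (log2 0.43 ± 0.18, adjusted p = 0.167). Both genes overlapped between the groups. B2M had 1559, 1529 and 1419.5 CPM in CS, all below the DMSO libraries at 1589.7, 1706 and 1781 CPM (log2 -0.17 ± 0.06, adjusted p = 0.102).

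After the GC correction with canonical transcripts, 7 of the 10 rows were called for CS against DMSO. Of these, NLRC5 stood at 0.41 ± 0.07, HLA-E at 0.35 ± 0.05, HLA-C at 0.23 ± 0.03, HLA-B at 0.16 ± 0.03 and B2M at -0.14 ± 0.02, and TAPBP and TAP2 ENSG00000250264 were at 0.15 and 0.21. The same correction raised the count over all genes to 4688, against 1729 as counted, so it moved calls well beyond these genes.

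In KPT-330+CS, 4 rows were called higher than in DMSO and 1 lower, where 29.3% of all tested genes were higher and 26.2% lower. HLA-E had 52.2, 46.7 and 42.9 CPM in KPT-330+CS, against 31.1, 25.7 and 21.8 CPM in DMSO (log2 0.85 ± 0.12, adjusted p = 6.39e-05). HLA-F had 2.62, 2.67 and 2.24 CPM in KPT-330+CS, against 1.17, 1.39 and 1.48 CPM in DMSO (log2 0.90 ± 0.15, adjusted p = 0.000175). Neither gene overlapped between the groups.

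HLA-B had 233, 213 and 186 CPM in KPT-330+CS, against 186, 155 and 138 CPM in DMSO, with the lowest and the highest library of the groups level (log2 0.40 ± 0.11, adjusted p = 0.00861). HLA-C had 81.1, 72.2 and 61.3 CPM in KPT-330+CS, against 63.4, 50.5 and 43.7 CPM in DMSO, so its libraries overlapped (log2 0.44 ± 0.15, adjusted p = 0.0195). After the GC correction with canonical transcripts the 2 chains stood at 0.24 and 0.27. The HLA-C call was lost without KPT-330+CS replicate 1 (0.34, adjusted p = 0.0868) and without KPT-330+CS replicate 2, DMSO replicate 2 or DMSO replicate 3. Without the filter on low counts only 2 member rows were called higher, beside 5705 of 36140 genes. NLRC5 had 54.1, 51.6 and 40.4 CPM in KPT-330+CS, against 55.7, 41.0 and 32.4 CPM in DMSO (log2 0.18 ± 0.18, adjusted p = 0.431). The row called lower was TAP2 ENSG00000204267, with 26.0, 24.5 and 22.2 CPM in KPT-330+CS, against 34.0, 32.0 and 24.6 CPM in DMSO (log2 -0.32 ± 0.10, adjusted p = 0.0192). With both TAP2 identifiers summed it was -0.08 (adjusted p = 0.534). No member row was called lower in the fit to these 2 groups alone or with library size alone. The same held without KPT-330+CS replicate 3, DMSO replicate 1 or DMSO replicate 2.

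**Figure D4:**
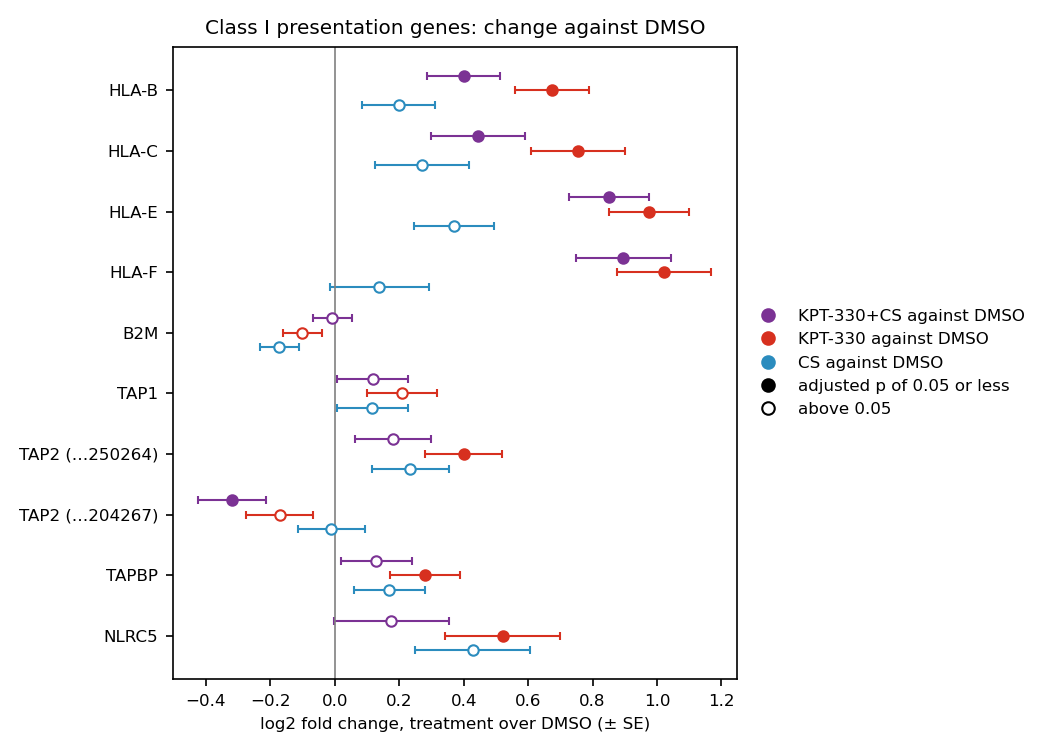
Log2 fold change over DMSO (± SE) of each member row in KPT-330+CS, KPT-330 and CS, filled where the adjusted p was 0.05 or less. The 4 heavy chains are filled for KPT-330+CS and KPT-330 and open for CS, and B2M lies between -0.17 and -0.01 in all 3.

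Adding CS to KPT-330 gave no called member (edgeR, 0 of 10 rows, with 2 at an unadjusted p of 0.05 or less, 1 by DESeq2 and 0 by limma voom), while 37.6% of all tested genes were called in either direction. The estimates for KPT-330+CS over KPT-330 were -0.27 ± 0.11 for HLA-B (adjusted p = 0.0736), -0.31 ± 0.14 for HLA-C, -0.12 ± 0.12 for HLA-E, -0.13 ± 0.14 for HLA-F and -0.35 ± 0.18 for NLRC5. All 3 KPT-330+CS libraries lay below all 3 KPT-330 libraries in 5 of the 10 rows, HLA-B and HLA-C among them, and above in 1. The share of all tested genes set apart in this way was not counted. After the GC correction with canonical transcripts HLA-B overlapped, at 203 to 211 CPM in KPT-330+CS and 205 to 219 CPM in KPT-330. HLA-C overlapped too, at 68.7 to 71.4 and 70.6 to 72.8 CPM. A fit to these 2 groups alone called 4 rows lower (HLA-B, HLA-C, TAP2 ENSG00000250264 and NLRC5), and 22.6% of all genes tested in that fit were lower. After the GC correction with canonical transcripts the estimates were -0.05 for HLA-B, -0.04 for HLA-C and -0.04 for HLA-E.

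Set directly against KPT-330, CS had lower heavy chains. HLA-F was at -0.88 ± 0.14 (adjusted p = 0.000282), HLA-E at -0.61 ± 0.12 (0.00158), HLA-B at -0.48 ± 0.11 (0.00441) and HLA-C at -0.48 ± 0.15 (0.0162). These were the 4 rows called, all lower, where 22.6% of all tested genes were lower. HLA-C turned to 0.04 after the correction with longest transcripts and was -0.08 with canonical ones. TAP1, TAPBP and NLRC5 were at -0.09, -0.11 and -0.09 as counted and at 0.18, 0.14 and 0.20 after the correction with canonical transcripts, where they were called higher in CS. B2M was at -0.07 ± 0.06 (adjusted p = 0.366) as counted. With longest transcripts it was called lower in CS, at -0.20 ± 0.02 (9.68e-07). That correction called 8 rows, 4 higher and 4 lower, beside 9965 of 19460 genes.

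Against CS, the combination had HLA-F at 0.76 ± 0.14 (adjusted p = 0.000729), HLA-E at 0.48 ± 0.12 (0.00580) and B2M at 0.16 ± 0.06 (0.0402), and TAP2 ENSG00000204267 at -0.31 ± 0.10 (0.0262). That made 3 rows higher and 1 lower, where 26.1% of all tested genes were higher and 21.7% lower. HLA-B and HLA-C were at 0.20 ± 0.11 and 0.17 ± 0.15 and were not called. This comparison and the one against KPT-330 share the KPT-330+CS libraries, and the 3 comparisons against DMSO share the DMSO libraries, so they are not independent.

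The interaction of the 2 drugs, the part of the combination's log2 change not given by the sum of the single-drug changes, was negative for the heavy chains and NLRC5 without passing in edgeR. HLA-B was at -0.47 ± 0.16 (adjusted p = 0.0666), HLA-C at -0.58 ± 0.21 (0.0760), HLA-E at -0.49 ± 0.17 (0.0778) and NLRC5 at -0.77 ± 0.25 (0.0574), and 14.7% of all tested genes were called in either direction. The highest term of the 10 rows was positive, at 0.26. In all, 6 of the 10 rows had an unadjusted p of 0.05 or less. DESeq2 called 5 rows, all lower, beside 2699 of 17322 genes with an adjusted p. Limma voom called 1 row, which was higher, beside 2840 of 19460 genes. Without DMSO replicate 1, the DMSO library with the highest HLA-B, HLA-C and HLA-E levels and GC slope, 7 rows were called, as were 23.6% of all genes tested in that fit. Of these rows, 6 were lower and 1 higher. After the GC correction with canonical transcripts the estimates were -0.21 for HLA-B, -0.27 for HLA-C, -0.39 for HLA-E and -0.57 for NLRC5. Under it 5 rows were called, 4 lower and 1 higher, beside 26.5% of all tested genes.

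Per kilobase of the length given in the table, the order of the members was nearly the same in all groups. B2M led with 452 ± 25.4 CPM per kb in KPT-330+CS, 423 ± 4.65 in KPT-330, 403 ± 19.6 in CS and 454 ± 25.9 in DMSO (SD, n = 3). HLA-B followed with 70.0 ± 7.88 in KPT-330+CS, 84.6 ± 3.55 in KPT-330, 60.8 ± 7.71 in CS and 53.0 ± 8.05 CPM per kb in DMSO. HLA-C and HLA-E came next, and the ranges of these 4 genes did not overlap in any group. TAP2 ENSG00000250264 overlapped HLA-E in CS and in DMSO and lay below it in KPT-330+CS and KPT-330. TAPBP, TAP1, NLRC5 and TAP2 ENSG00000204267 had group means between 3.48 and 5.64 CPM per kb, with neighbours that mostly overlapped. HLA-F was lowest, at 0.578 ± 0.053 in KPT-330+CS, 0.629 ± 0.074 in KPT-330, 0.340 ± 0.015 in CS and 0.310 ± 0.037 CPM per kb in DMSO. The heavy chains of JEKO-1 may differ in sequence from the reference, which can lower their counts, so levels between HLA genes are approximate.

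Among 9925 other genes with a mean of at least 5 CPM, those closest to HLA-B over the 12 libraries were CDK5RAP3, TYSND1 and MLLT6, at a root mean square difference of 0.042 to 0.049 in centred log2 CPM, where HLA-B itself varied by 0.287 and the median candidate differed by 0.371. Closest to NLRC5 were CD79B, C9orf69 and ZMIZ2 (0.088 to 0.100), closest to B2M were ADH5, DHX36 and C2orf43 (0.030 to 0.032), and closest to TAP1 were HERC2, PDXP and CD2BP2 (0.058 to 0.066). Likeness here includes what the libraries share, such as GC slope.

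Of the 11 genes on the list of peptide supply and loading, 5 were called higher and 3 lower in KPT-330 than in DMSO, and 5 higher and 4 lower in KPT-330+CS than in DMSO. Over all tested genes, 24.7% were higher and 23.8% lower in KPT-330, and 29.3% higher and 26.2% lower in KPT-330+CS. The catalytic subunits of the immunoproteasome, which cut peptides suited to class I, were on the higher side. PSMB9 had 37.0, 35.9 and 40.3 CPM in KPT-330, against 25.5, 20.8 and 17.5 CPM in DMSO (log2 0.82 ± 0.14, adjusted p = 0.000285). PSMB8 had 58.5, 57.7 and 60.5 CPM in KPT-330, against 46.4, 42.5 and 39.9 CPM in DMSO (log2 0.46 ± 0.07, adjusted p = 0.000141). PSMB8 was the one gene of this list called higher in CS than in DMSO (log2 0.36 ± 0.07, adjusted p = 0.00743). PSMB10 had 38.7, 40.0 and 41.1 CPM in KPT-330, against 32.6, 19.8 and 13.1 CPM in DMSO (log2 0.87 ± 0.30, adjusted p = 0.0292). Its DMSO libraries differed most among these genes, and it stood at 0.38 (adjusted p = 0.0699) after the GC correction with canonical transcripts.

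CALR, a luminal chaperone of the loading complex, which holds the glycan of the heavy chain, had 270.3, 255 and 269 CPM in KPT-330, against 504, 499.6 and 476 CPM in DMSO (log2 -0.90 ± 0.05, adjusted p = 1.20e-08). PDIA3, the oxidoreductase ERp57, had 122, 122 and 122 CPM in KPT-330, against 213, 238 and 252 CPM in DMSO (log2 -0.94 ± 0.07, adjusted p = 3.13e-07). Both were also lower in KPT-330+CS than in DMSO, at -1.02 and -1.01, and in CS than in DMSO, at -0.19 and -0.41. Calnexin (CANX), which folds new heavy chains, was at -0.32 in KPT-330+CS and -0.33 in CS over DMSO, both called, and at -0.07 (adjusted p = 0.389) in KPT-330 over DMSO. CALR and PDIA3 serve many glycoproteins besides class I.

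The proteasome activator subunits PSME1 and PSME2, which work as a pair, moved apart. PSME1 was at 0.21 ± 0.05 (adjusted p = 0.00328) and PSME2 at -0.31 ± 0.05 (adjusted p = 0.000131) in KPT-330 over DMSO, and at 0.18 and -0.63 in KPT-330+CS over DMSO. The PSME1 calls were lost after the GC correction with longest transcripts (0.08 and 0.09). The trimming peptidase ERAP2 had 93.8, 100.4 and 109 CPM in KPT-330+CS, against 57.2, 65.7 and 71.6 CPM in DMSO (log2 0.64 ± 0.08, adjusted p = 1.58e-05), and was at 0.20 ± 0.08 (adjusted p = 0.0495) in KPT-330 over DMSO. Its partner ERAP1 was at 0.30 ± 0.06 (adjusted p = 0.000536) in KPT-330+CS and at 0.13 ± 0.06 (adjusted p = 0.0828) in KPT-330 over DMSO. TAPBPL, a peptide editor related to tapasin, was at 0.24 ± 0.17 in KPT-330 and at -0.29 ± 0.18 in KPT-330+CS over DMSO, neither called.

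**Figure D5:**
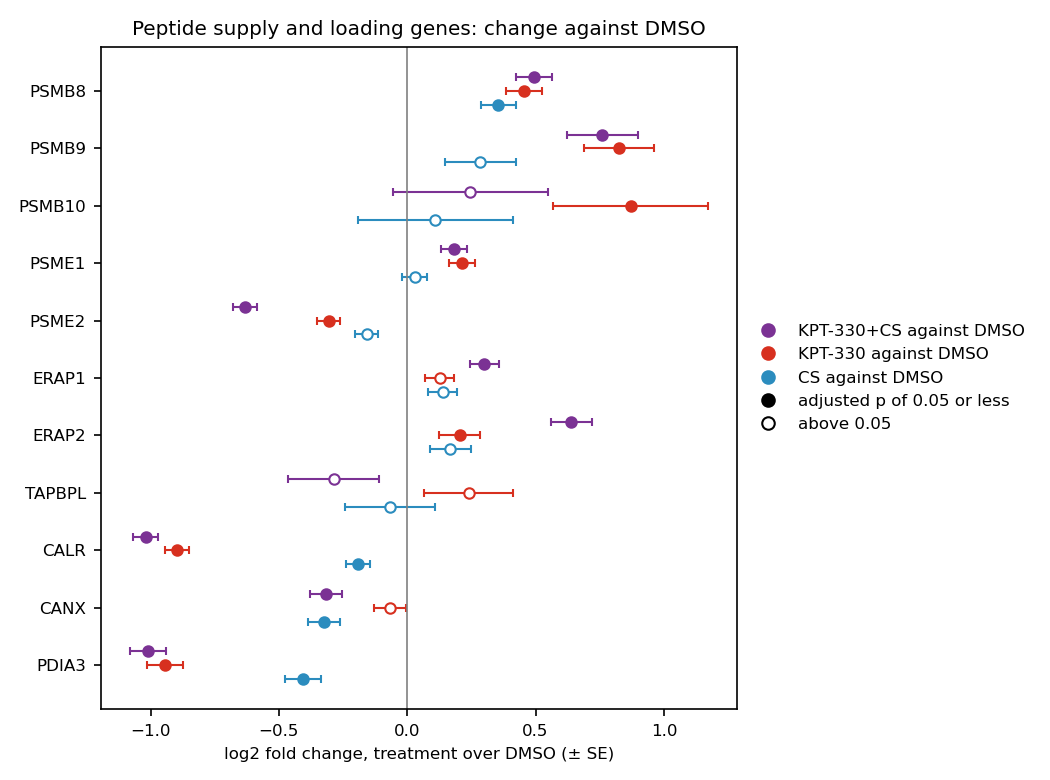
Log2 fold change over DMSO (± SE) of 11 peptide supply and loading genes in KPT-330+CS, KPT-330 and CS, filled where the adjusted p was 0.05 or less. PSMB8 and PSMB9 lie to the right of 0 and PSME2, CALR and PDIA3 to the left in all 3 treatments.

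Factors known at class I promoters were mixed, with 6 of 16 higher and 5 lower in KPT-330 and 5 higher and 4 lower in KPT-330+CS, each against DMSO. The shares over all tested genes were 24.7% and 23.8% in KPT-330 and 29.3% and 26.2% in KPT-330+CS. RFX5, the DNA-binding part of the RFX complex, rose in all 3 treatments, with 320.0, 320.0 and 314 CPM in KPT-330+CS, 286, 285 and 280.5 CPM in KPT-330, 235, 243 and 245 CPM in CS, and 176, 178 and 177 CPM in DMSO. Those were log2 changes of 0.84 ± 0.04, 0.68 ± 0.04 and 0.44 ± 0.04 over DMSO, with no overlap between groups. CIITA, the class II transactivator and a relative of NLRC5, was at 0.59 ± 0.09 in KPT-330 over DMSO (adjusted p = 8.88e-05), and IRF2 at 0.60 ± 0.06 in KPT-330+CS over DMSO (adjusted p = 1.80e-06). CREB1, a factor of the X2 site, was lower at -0.50 ± 0.07 in KPT-330 and -0.56 ± 0.07 in KPT-330+CS. RFXAP and ATF1 were not called in KPT-330 (0.11 and -0.15), nor were NFYA and CREBBP in KPT-330+CS (-0.13 and 0.04).

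Interferon signalling is the best known inducer of class I genes. None of 7 interferon genes passed the filter on low counts, and together they reached at most 0.035 CPM in any library. Of 12 rows for receptors and signal carriers, 3 were higher and 6 lower in KPT-330 and 2 higher and 4 lower in KPT-330+CS, each against DMSO. Among all tested genes, 24.7% were higher and 23.8% lower in KPT-330, and 29.3% higher and 26.2% lower in KPT-330+CS. STAT2, which carries type I interferon signals, had 179.8, 187 and 189 CPM in KPT-330+CS and 124, 122 and 124 CPM in KPT-330, against 64.2, 65.9 and 60.1 CPM in DMSO. Its log2 changes were 1.55 ± 0.05 and 0.96 ± 0.05 over DMSO. SOCS1, a feedback inhibitor, rose by 2.41 ± 0.52 in KPT-330+CS and 2.43 ± 0.51 in KPT-330 over DMSO, on 3 to 54 reads a library. The receptor chain IFNAR2 was lower at -0.76 ± 0.06 and -0.71 ± 0.06. JAK1 was called in neither, nor were IFNAR1 in KPT-330+CS (-0.03) and IRF9 ENSG00000259529 in KPT-330 (-0.01).

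Each count in this paragraph stands beside the shares over all tested genes against DMSO. These were 24.7% higher and 23.8% lower in KPT-330, and 29.3% higher and 26.2% lower in KPT-330+CS. Of 21 tested interferon-stimulated genes, 5 were higher and 9 lower in KPT-330 than in DMSO and 6 higher and 7 lower in KPT-330+CS than in DMSO. In KPT-330 the largest called changes were GBP2 (3.29 ± 0.79), GBP1 (3.10 ± 0.73) and IFIT1 (-2.48 ± 0.71), each on at most 18 reads a library, and in KPT-330+CS they were IFI44 (-2.30 ± 0.23), IFI44L (-2.19 ± 0.14) and IFIT2 (1.52 ± 0.26). MX2 and XAF1 were not called in KPT-330 (-0.02 and 0.08), nor OAS3 and ISG15 in KPT-330+CS (0.30 and 0.54). Of 11 class II genes, 9 were higher in KPT-330+CS and 11 in KPT-330 than in DMSO, led by HLA-DQB1 at 1.39 ± 0.15 in KPT-330+CS and 1.89 ± 0.15 in KPT-330. HLA-DOA, part of the class II peptide editor, was at 1.16 ± 0.05 in KPT-330+CS and 1.10 ± 0.05 in KPT-330, and HLA-DRA and CD74 were not called in KPT-330+CS (0.13 and 0.16). Polycomb subunits, whose complex can silence class I genes, included EZH2, with 145, 149 and 163 CPM in KPT-330+CS, against 264, 285 and 301 CPM in DMSO (log2 -0.90 ± 0.06, adjusted p = 6.27e-08). In KPT-330 alone EZH2 had 278, 270.0 and 275 CPM and was not called as counted (-0.05). In all, 1 of 6 Polycomb genes was higher and 5 lower in KPT-330+CS, and 1 higher and 3 lower in KPT-330, each against DMSO. SUZ12 was at -0.55 ± 0.08 and -0.24 ± 0.08, EED at -0.45 ± 0.06 and -0.18 ± 0.06, RNF2 at -0.31 ± 0.07 and -0.24 ± 0.07 and RING1 at 0.40 ± 0.15 and 0.45 ± 0.15 in KPT-330+CS and in KPT-330, and RING1 turned to -0.10 in KPT-330 after the GC correction with longest transcripts.

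Other chains that pair with B2M did not follow the members as a group: of 6 tested, 2 were higher and 3 lower in both KPT-330+CS and KPT-330 than in DMSO. Over all tested genes the shares were 29.3% and 26.2% in KPT-330+CS and 24.7% and 23.8% in KPT-330. MR1, which shows vitamin B metabolites to T cells, had 51.4, 53.1 and 56.7 CPM in KPT-330+CS, 29.7, 28.7 and 28.5 CPM in KPT-330, 25.9, 27.0 and 26.9 CPM in CS, and 21.2, 22.8 and 24.6 CPM in DMSO (KPT-330+CS over DMSO, log2 1.23 ± 0.07, adjusted p = 6.01e-09). FCGRT, the neonatal Fc receptor, was at 1.90 ± 0.37 in KPT-330+CS and 2.07 ± 0.37 in KPT-330 over DMSO, on 11 to 151 reads a library. The lipid-presenting chains CD1C and CD1D were lower, at -3.09 ± 0.50 and -1.48 ± 0.12 in KPT-330+CS over DMSO. HFE, an iron regulator, was lower at -1.28 ± 0.44 in KPT-330+CS and -1.87 ± 0.46 in KPT-330, and HLA-G was called in neither (0.45 and 0.57). MR1 lies outside the naming rule and was chosen after its values were seen.

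Of 5 tested ligands of NKG2D, the activating receptor of natural killer cells, 3 were higher in KPT-330+CS and 3 in KPT-330 than in DMSO. Higher calls made up 29.3% of all tested genes in KPT-330+CS and 24.7% in KPT-330. ULBP1 had 4.37, 4.51 and 4.22 CPM in KPT-330+CS, 1.48, 1.68 and 1.24 CPM in KPT-330, 2.90, 2.69 and 2.75 CPM in CS, and 0.554, 0.611 and 0.582 CPM in DMSO. No library overlapped between any 2 groups, and the log2 changes over DMSO were 2.90 ± 0.15, 1.33 ± 0.16 and 2.25 ± 0.15. ULBP2 was at 1.12 ± 0.31 in KPT-330+CS and 0.80 ± 0.31 in KPT-330 over DMSO (adjusted p = 0.0479). MICA was at 0.89 ± 0.15 in KPT-330+CS and 0.50 ± 0.15 in KPT-330 over DMSO, and MICB (-0.03 and -0.14) and ULBP3 (-0.04 and 0.13) were called in neither. SUSD6 (KIAA0247 in the table), TMEM127 and WWP2, described together as a complex that lowers surface class I, gave no single pattern: in KPT-330+CS over DMSO, TMEM127 was at 0.31 ± 0.07 and KIAA0247 and WWP2 were both at -0.32, and in KPT-330 only TMEM127 was called (0.27 ± 0.07).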

How the data were processed

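The authors deposited a table of raw read counts per gene for 12 libraries of polyA RNA (48 h of treatment, 3 libraries a group). Per the submitters' processing notes, STAR, edgeR and hg38 were used; the genes are Ensembl 78 models, and no source used here names the counting program or its strand setting. Counts were tested with edgeR 4.0.16 (R 4.3.3; filterByExpr, TMM scaling, robust quasi-likelihood F-test) in 1 fit over all 12 libraries with 8 residual degrees of freedom and 7 contrasts, with Benjamini-Hochberg adjustment over 19460 tested genes and a threshold of 0.05. The SE of a log2 fold change is its size divided by the square root of F, which is approximate for genes of few reads. CPM values are counts scaled by TMM library size, and per kilobase uses the length in the table. Counts of members are over 10 rows, since TAP2 has 2 identifiers. Limma 3.58.1 and DESeq2 1.42.0 gave alternatives. The fit was tested on simulated data.

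The GC correction subtracts from each library a lowess curve (span 0.3) on the GC content of a gene's longest transcript, available for 97.0% of tested genes. The curve is of log2 CPM relative to each gene's mean over all libraries, or over its group in the version within groups. The version with canonical transcripts (GENCODE 44), the one within groups, and leaving out the lowest-slope library of 3 groups were chosen after seeing the data. Members and gene lists were chosen with earlier results of these data known. The genes named are all members, all peptide supply and loading genes, and from each other list up to 3 that passed with the largest change and up to 2 that did not with the highest level, in each comparison. Depth covers counting error only. Promoters are RefSeq's (GRCh38.p14). One further gene with a called interaction is not reported here.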

Additional observations from a re-analysis of the deposited data

Results flagged for a closer look

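No member met a rule for a closer look. For 41 genes reported here of the other lists, 16 with a positive and 25 with a negative term, the effect of KPT-330 differed with and without CS by the interaction term of the edgeR fit (log2 ± SE, with p adjusted over all tested genes in brackets). Over all 19460 tested genes, 14.7% had a called term in either direction, 1565 positive and 1288 negative. After the GC correction with canonical transcripts, 2150 were positive and 3007 negative. All terms named here and in the next paragraph are as counted, without a GC correction. Mean GC slopes per 10 GC points were 0.001 in KPT-330+CS, 0.209 in KPT-330, -0.091 in CS and -0.119 in DMSO. The part of GC content in these terms was not tested. The term was negative for all 11 class II genes: HLA-DQB1 was at -1.23 ± 0.21 (0.00211), HLA-DRB1 at -0.85 ± 0.15 (0.00309), CD74 at -0.79 ± 0.22 (0.0316), HLA-DOB at -0.78 ± 0.12 (0.000922), HLA-DPB1 at -0.66 ± 0.18 (0.0247) and HLA-DQA1 at -0.62 ± 0.08 (0.000291). HLA-DMB was at -0.56 ± 0.06 (9.88e-05), HLA-DMA at -0.47 ± 0.07 (0.000689), HLA-DPA1 at -0.47 ± 0.07 (0.000765), HLA-DOA at -0.42 ± 0.07 (0.0014) and HLA-DRA at -0.41 ± 0.09 (0.00908). Of the interferon-stimulated genes, 10 of 21 passed, each with a positive term: IFIT2 was at 3.61 ± 0.43 (0.000169), IFIT3 at 1.92 ± 0.26 (0.000396), IFI6 at 1.67 ± 0.39 (0.0131), OAS1 at 1.57 ± 0.08 (3.47e-07) and OASL at 1.34 ± 0.39 (0.0361). IFI44L was at 1.06 ± 0.20 (0.00393), OAS2 at 0.83 ± 0.09 (6.22e-05), XAF1 at 0.81 ± 0.13 (0.00137), MX1 at 0.61 ± 0.10 (0.00171) and OAS3 at 0.58 ± 0.18 (0.0488).

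Among the promoter factors, CIITA was at -0.67 ± 0.12 (0.00286), RFX5 at -0.28 ± 0.06 (0.00848) and CREBBP at -0.27 ± 0.08 (0.0363). Among the interferon path, STAT2 was at 0.49 ± 0.07 (0.000532), IFNGR1 at 0.44 ± 0.09 (0.00750) and IFNAR1 at 0.38 ± 0.10 (0.0259). In peptide supply and loading, PDIA3 was at 0.34 ± 0.10 (0.0371) and PSMB8 at -0.32 ± 0.10 (0.0467). MR1 was at 0.67 ± 0.09 (0.000522), ULBP1 at -0.68 ± 0.20 (0.0379), CD1D at -0.64 ± 0.16 (0.0179) and EZH2 at -0.63 ± 0.09 (0.000511). CD1C was at -2.46 ± 0.66 (0.0251), on 1 to 114 reads a library. Among the cell type markers, CD22 was at -1.40 ± 0.10 (3.29e-06), BLK at -0.55 ± 0.16 (0.031) and PAX5 at -0.48 ± 0.12 (0.0216). TRAC was at -1.85 ± 0.14 (5.12e-06), KLRK1 at -1.43 ± 0.09 (8.84e-07), LYZ at 1.46 ± 0.35 (0.0143) and COL1A1 at -2.68 ± 0.70 (0.0232). The last 2 were low: the highest fibroblast marker reached 0.305 CPM in any library, and the highest myeloid marker 2.85 CPM.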

How the results depend on the processing

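HLA-B, HLA-C, HLA-E and HLA-F were called higher in KPT-330 than in DMSO under all 26 alternatives. The number of member rows called in KPT-330 against DMSO was 7, and 4 to 8 with 1 library left out. Over all genes 9446 were called, and 7812 to 10400 with 1 library left out. With the GC correction within groups 9 member rows were called, 8 higher and 1 lower, where 11800 of 19460 genes were called. For KPT-330+CS against DMSO 5 member rows were called, with 3 without a filter, 8 with library size alone, 8 with the GC correction within groups and 3 to 5 with 1 library left out. The 8 rows were all higher with library size alone, and 7 higher and 1 lower within groups. Over all genes 10806 were called, with 10557, 10969 and 12628 under these 3 settings and 9706 to 11046 with 1 library left out. For CS against DMSO 0 member rows were called, with 1 by DESeq2, 5 with the GC correction, 4 with the replicate block and GC correction, 6 within groups, 7 with canonical transcripts, 1 without the lowest-slope libraries and 0 to 3 with 1 library left out. Under each GC correction 1 of the called rows was lower and the others higher. For CS against KPT-330 4 member rows were called, all lower, with 8, 7 and 8 under the GC correction, the block with it, and canonical transcripts, and 3 to 4 with 1 library left out. Of those 8, 7 and 8 rows, 4, 3 and 3 were higher. Over all genes 8325 were called, with 9965, 9552 and 10037 under these 3 settings and 6536 to 9091 with 1 library left out. For KPT-330+CS against KPT-330 0 member rows were called, with 1 by DESeq2 size factors, 1 by DESeq2, 4 for the compared groups alone, 1 with the GC correction, 7 within groups and 0 to 1 with 1 library left out. All were lower but 1 of the 7. Over all genes 7311 were called, with 7117, 6673, 8857, 9304 and 10322 under these 5 settings and 5483 to 8121 with 1 library left out. For KPT-330+CS against CS 4 member rows were called, 3 higher and 1 lower, and 2 to 4 with 1 library left out. Over all genes 9297 were called, and 7941 to 10004 with 1 library left out. For the interaction 0 member rows were called, with 1 under the stricter filter, 2 by DESeq2 size factors, 1 with library size alone, 5 by DESeq2, 1 by limma voom, 4 with the GC correction, 4 with the block and it, 7 within groups, 5 with canonical transcripts, 1 without the lowest-slope libraries and 0 to 7 with 1 library left out. The row under the stricter filter, library size alone and limma voom was higher. The rows by DESeq2, by its size factors and without the lowest-slope libraries were lower. Each GC correction had 1 higher row and the others lower.

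Over all genes, CS against DMSO had 1729 calls, with 249 for the compared groups alone, 1036 with the replicate block, 4563 with the GC correction, 4072 with both, 4650 within groups, 4688 with canonical transcripts and 760 to 2580 with 1 library left out. DESeq2 called 1501 and the fit without the lowest-slope libraries 1648. The interaction had 2853, with 5121, 4694, 6998 and 5157 under the same 4 GC settings and 1713 to 4711 with 1 library left out. It had 3021 under the stricter filter, 2455 by DESeq2 size factors and 3014 with library size alone. DESeq2 called 2699, limma voom 2840 and the fit without the lowest-slope libraries 2518. Same-numbered libraries did not deviate together (correlations -0.384 to 0.401 over 18 pairs, and 3 of 12 libraries correlated best with their own number), so the block pairs only a number.

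Signs turned as follows under the GC correction, the block with it and canonical transcripts. In KPT-330 against DMSO, CANX was 0.0744, 0.0744 and 0.0935, RING1 -0.1008, -0.1006 and -0.0854, and WWP2 -0.3155, -0.3158 and -0.2853, with TAPBP at -0.0244 and -0.0245 and EZH2 at 0.0928 and 0.0927 under the first pair. B2M was 0.0607 and, with canonical transcripts, 0.0662. In CS against KPT-330, ERAP1 was -0.1076, -0.1072 and -0.0874, TAP1 0.1935, 0.1943 and 0.1792, TAPBP 0.1647, 0.1645 and 0.1436, and NLRC5 0.2253, 0.2268 and 0.2020, with HLA-C at 0.0440 and 0.0438 and TAP2 ENSG00000250264 at 0.1926. With library size alone, which moved the median of all genes in KPT-330 against DMSO to 0.20, MX2 was 0.1348 in KPT-330, and B2M 0.1784 and IFNAR1 0.1561 in KPT-330+CS, against DMSO. A further 168 values changed sign with no call in either fit. The cause of these changes was not tested.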
